A study of Mus musculus with 12 samples.

Results

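AP-1 and immediate early genes were followed in fasted mouse liver with and without the ubiquitin chain factor Ube4a. The members are 10 genes, Junb, Jun, Jund, Fos, Fosl2, Atf3, Egr1, Ier2, Zfp36 and Dusp1, found by symbol among the 41708 genes of the count table, each as a single entry. The list was put together because Junb and Egr1 were lower in the knockout livers in an earlier test of the same data, so the difference between genotypes is described here for all 10 genes and is not evidence for itself. All 12 mice had the background C57BL6/J, carried Ube4a flox/flox alleles and were fasted for 16 h. The 5 flox mice are the controls, and the 7 LKO mice also carried Albumin-Cre, which acts in hepatocytes. Age and sex are not given in the labels, and Cre and the loss of Ube4a cannot be told apart in this design. RNA came from whole liver, where fewer cells of a type and less RNA per cell cannot be told apart.

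Immediate early genes are transcribed within minutes of a stimulus without new protein synthesis, mostly through MAP kinase, serum response factor and CREB signals. Several of their products form AP-1, a dimer of a Jun protein with a Fos, ATF or second Jun protein that binds DNA through a basic leucine zipper. Others are brakes: tristetraprolin, encoded by Zfp36, speeds the decay of AU-rich mRNAs, and the phosphatase encoded by Dusp1 switches MAP kinases off. In liver this set is known to react to fasting hormones, injury, partial hepatectomy and the handling of the tissue.

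The promoters of 4 members are shown because these genes represent the Jun, Fos and phosphatase branches of the list and differ in the short signal-response motifs they hold. RefSeq promoter entries on GRCm38.p6 were used for 8 of the 10 genes, all but Egr1 and Ier2. The bases are read 5′ to 3′ on the gene's strand up to the annotated start, except for Dusp1, where the last 47 bases before the start are left out, and motif matches are in capitals. The first is Junb on chr8:84978749-84978868 (minus strand), the second Fos on chr12:85473770-85473889 (plus strand), the third Jun on chr4:95052223-95052342 (minus strand) and the last Dusp1 on chr17:26508520-26508672 (minus strand).
Junb: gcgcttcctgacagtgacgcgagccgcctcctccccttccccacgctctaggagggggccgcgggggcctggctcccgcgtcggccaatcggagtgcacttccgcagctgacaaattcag
Fos: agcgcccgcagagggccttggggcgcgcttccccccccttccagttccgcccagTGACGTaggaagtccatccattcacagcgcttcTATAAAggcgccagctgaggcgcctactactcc
Jun: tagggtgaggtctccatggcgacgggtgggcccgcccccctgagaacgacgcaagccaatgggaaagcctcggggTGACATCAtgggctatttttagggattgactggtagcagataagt
Dusp1: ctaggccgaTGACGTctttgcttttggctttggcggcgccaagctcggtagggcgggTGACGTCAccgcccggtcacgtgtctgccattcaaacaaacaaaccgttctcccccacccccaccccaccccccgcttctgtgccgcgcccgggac

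Both strands of the 250 bases before each start were searched for 6 motifs. Egr1 and Ier2 were not among the 8 member promoters, so whether theirs hold these motifs was not tested. TGACGT, the core of the cAMP response element bound by CREB and ATF factors, occurred in Fos, Dusp1 and Atf3, that is in 3 of the 8 promoters, and in 6.47% of all 32851 promoter entries. In Dusp1 it occurred at 2 places, and at the second the matches on both strands overlap as TGACGTCA. TGACATCA, the variant known from the Jun promoter, was found in Jun alone and in 2.93% of all entries. GCGNGGGCG, the site of EGR proteins, occurred in Fosl2 and Zfp36 and in 4.70% of all entries, the CArG box of serum response factor in Zfp36 (1.47% of all), TATAAA in Fos (12.4% of all), and TGACTCA, the classic AP-1 site, in none of the 8 (4.46% of all). Junb held none of the 6 motifs in this window.

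The libraries held 13399874 to 16525053 counts. Ube4a, the targeted gene, averaged 134 ± 11.6 CPM (SD, n = 5) in flox against 26.6 ± 3.45 CPM (SD, n = 7) in LKO livers, so every library had the level its label gives (two-sided exact permutation p = 0.00126, the smallest that the 792 splits of the livers allow). The 8 hepatocyte markers in the table summed to 94381 to 131483 CPM, and so the tissue matched its label. Flox replicates 4 and 5 stood apart: 10 markers of neutrophils and their precursors summed to 465 and 728 CPM there, against 4.86 to 9.55 in the other flox and 5.997 to 25.4 in the LKO livers. The 10 markers of Kupffer cells and macrophages summed to 641 and 915 CPM there, against 47.1 to 143 and 104 to 307. None of these 20 markers was at 0 in all libraries, and 1 of them, Lcn2, is also made by hepatocytes. The 9 markers of sinusoidal endothelium summed to 482 and 617 CPM in the pair, against 239 to 266 in the other flox and 254 to 469 in the LKO livers, the 9 of stellate cells to 372 and 509 CPM (129 to 251 and 196 to 371), and the 7 of T and NK cells to 2.27 and 5.06 CPM (0.300 to 1.13 and 0.474 to 2.86). Dpp4, 1 of the endothelial markers, lay between 119 and 159 CPM in all 12 livers. Each fold change below is therefore given with and without this pair, which leaves 3 flox livers. Neither fit was even in these markers. With all livers the median log2 fold change, LKO over flox, was -1.16 for Kupffer cell, -0.35 for endothelial and -0.24 for stellate markers. Without the pair it was 0.84, 0.64 and 0.31, with 0 markers negative in each list.

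Most of the 10 mRNAs were readily detected in the fasted liver, Fos and Atf3 least. Per length, on the scale of the FPKM values deposited by the authors, Zfp36 was highest in flox livers with 47.0 ± 5.84 FPKM, and Jund, the Jun protein gene that is least dependent on stimulation, followed with 31.2 ± 5.04 FPKM (SD, n = 5 for these and the next values). Dusp1 (19.0 ± 4.10 FPKM), Junb (16.8 ± 3.81), Ier2 (16.5 ± 2.33) and Jun (12.02 ± 4.77) followed, and neighbours in this order overlapped in their mean ± SD. Egr1 measured 3.10 ± 0.43 FPKM and Fosl2 2.22 ± 0.41 FPKM. Atf3 (1.08 ± 0.39 FPKM) and Fos (1.01 ± 0.76 FPKM) did not differ beyond their spread. In LKO livers Zfp36 and Jund again led, with 41.3 ± 3.88 and 26.1 ± 5.48 FPKM (SD, n = 7), while Junb stood at 9.15 ± 1.82 FPKM, below Ier2, Dusp1 and Jun.

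**Figure D1:**
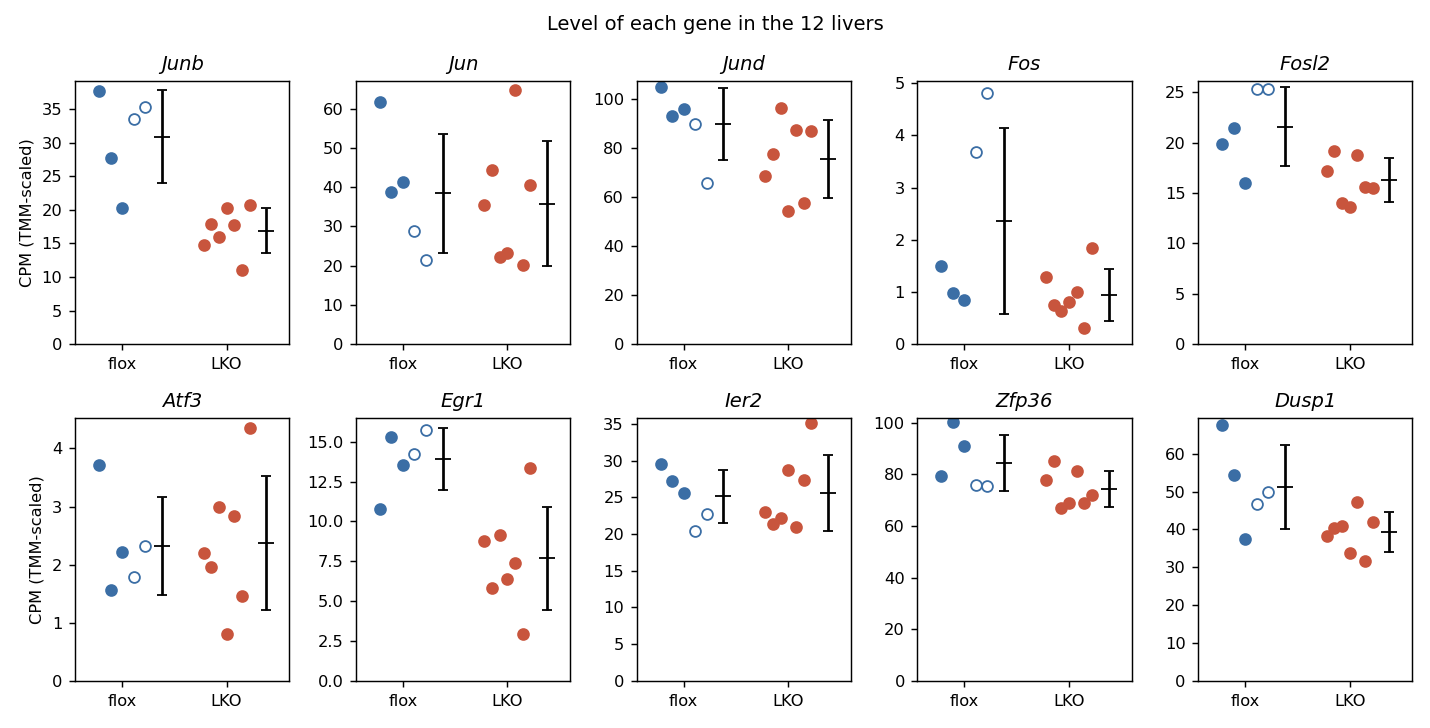
Level of each of the 10 genes in CPM (vertical axis, scaled library sizes) in flox (blue, n = 5) and LKO livers (red, n = 7); each point is a liver, open points are flox replicates 4 and 5, and bars are the mean ± SD. The LKO points of Junb lie between 11.1 and 20.7 CPM against 20.3 to 37.6 in flox, and those of Fos in flox split into 3 low and 2 high livers.

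The comparison of LKO with flox livers asked whether loss of Ube4a in hepatocytes changed these mRNAs. Junb and Egr1 were at 54.8% and 55.3% of their flox means, Fos at 40.0%, Fosl2 at 75.4% and Dusp1 at 76.6%, while Atf3 (102%) and Ier2 (102%) were close to theirs. In edgeR's quasi-likelihood fit no member passed after Benjamini-Hochberg adjustment over all genes tested (0 of 10, where 0.00793% of the 12615 genes passed, Ube4a alone). At an unadjusted p under 0.05, 5 of 10 were lower, against 4.15% of all genes, and 0 of 10 higher, against 3.49%. DESeq2 called 1 of 10, Junb, against 0.174% of all genes. Without flox replicates 4 and 5 it called 0 of 10, where 4 of all 12811 genes passed. Without the pair edgeR again called 0 of 10 (0.00781% of all genes passed), with 5 lower at an unadjusted p under 0.05 against 1.81%. The fits shared 3 of these genes, Junb, Egr1 and Dusp1, with Fos and Fosl2 in the first and Jund and Zfp36 in the second. The list was chosen on this contrast, so nothing is read from these counts. All 10 members passed the filter on low counts. Their median log2 fold change was -0.32, beside -0.0060 over all genes tested, and without the pair -0.33 beside 0.0041.

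Junb led the list among the Jun genes. It encodes an AP-1 subunit that is inducible and is known to hold back Jun in some settings, and lies on chromosome 8 from 89205616 to 89207455 (minus strand, coordinates here and below as in the count table). The flox livers measured 37.6, 27.7, 20.3, 33.5 and 35.3 CPM in replicates 1 to 5, and the LKO livers 14.7, 17.9, 16.0, 20.4, 17.7, 11.1 and 20.7 CPM in replicates 1 to 7. Flox replicate 3 was low enough for LKO replicates 4 and 7 to exceed it, and 5 LKO livers were under the whole flox range. On the log2 scale the fold change was -0.87, with a standard error of 0.17 and a 95% interval of -1.23 to -0.51, and its p was the third smallest of all genes in edgeR (unadjusted p = 0.000128, adjusted p = 0.454). Without flox replicates 4 and 5 it was -0.76 (standard error 0.19).

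The other Jun genes differed less. Jun, the founding AP-1 subunit (chromosome 4, 98755429 to 98758617), ranged from 21.5 to 61.7 CPM in flox livers with a median of 38.7, and from 20.2 to 64.8 CPM in LKO livers with a median of 35.4. Its groups covered the same range, the spread within each being the widest of the Jun genes. The log2 fold change was -0.10 (standard error 0.32), and it was -0.40 without the pair and 0.14 without flox replicate 1 alone, the highest flox liver. Jund (chromosome 8, 73659962 to 73662838) ranged from 65.6 to 105 CPM in flox and from 54.5 to 96.2 CPM in LKO livers, with a log2 fold change of -0.25 (standard error 0.15), and -0.37 without the pair. For Jund 2 LKO livers lay below the lowest flox liver, and the groups otherwise overlapped.

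On the FPKM scale, Jund made up more than the other Jun genes together in 10 of 12 livers. Its share was 52.1 ± 4.74% in flox (SD, n = 5) and 56.5 ± 6.38% in LKO livers (SD, n = 7), and its lowest value was 46.8% in flox replicate 5. The Junb share was 28.4 ± 7.46% in flox and 20.1 ± 4.48% in LKO livers. It was highest in flox replicates 5 and 4, with 39.4% and 31.2%, and LKO replicate 4, with 29.7%, lay above the other 3 flox livers. The Jun share was lowest in the same flox livers, with 13.8% and 15.5%, and in LKO replicate 3, with 14.1%.

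**Figure D2:**
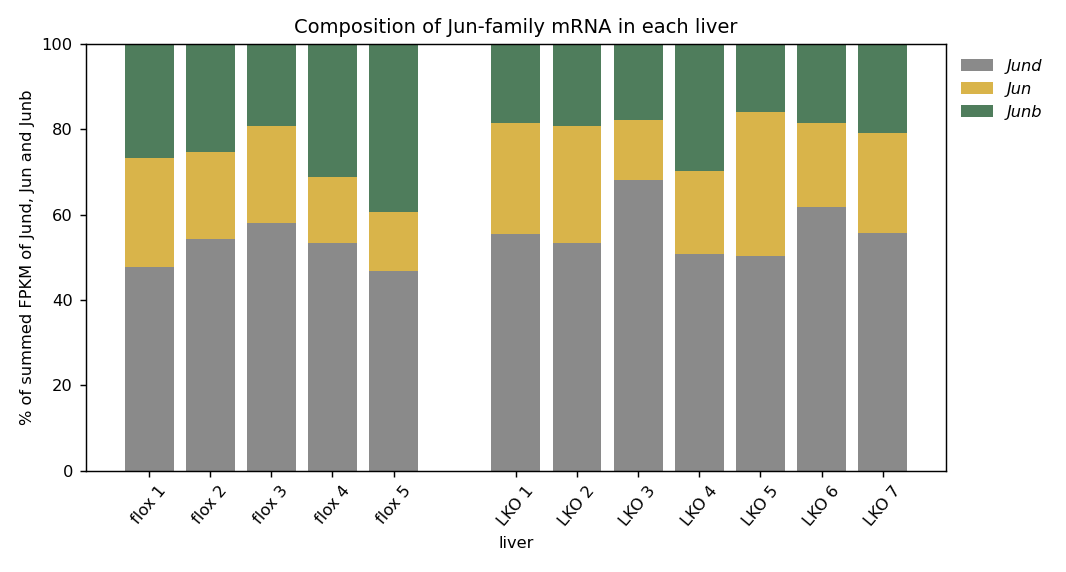
Share of Jund (grey), Jun (yellow) and Junb (green) in the summed FPKM of the 3 genes (vertical axis, %) in each liver (horizontal axis). The Junb part runs from 19.3% to 39.4% in flox and from 15.9% to 29.7% in LKO livers.

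Fos and Fosl2 encode partners of the Jun proteins that cannot pair with themselves. Fos (chromosome 12, 88741461 to 88744847) measured 1.499, 0.99, 0.84, 3.69 and 4.82 CPM in flox replicates 1 to 5, on 11 to 79 counts. In LKO livers it ranged from 0.32 to 1.84 CPM with a median of 0.81, on 5 to 27 counts. Flox replicates 4 and 5, in which the neutrophil and macrophage markers were high, exceeded all other livers, and the other 3 flox livers lay inside the LKO range. The log2 fold change was -1.33 (standard error 0.48) with all livers and -0.24 (standard error 0.44) without the pair, so the size of the Fos difference rested on these livers. The part of the marked cells in it was not tested.

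Fosl2 (chromosome 5, 32004578 to 32026626) measured 19.9, 21.4, 16.0, 25.3 and 25.3 CPM in flox livers and 13.6 to 19.2 CPM in LKO livers with a median of 15.6. The highest values were again those of flox replicates 4 and 5, and 4 LKO livers were under the whole flox range. Its log2 fold change was -0.41 (standard error 0.12), and -0.23 (standard error 0.13) without the pair. In FPKM, Fosl2 outweighed Fos in every liver, with 56.0% to 84.0% of their sum in flox and 67.2% to 92.2% in LKO livers.

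Atf3 encodes a stress-induced bZIP protein that pairs with Jun proteins and often represses transcription (chromosome 1, 204512664 to 204563744). Its level was 1.56 to 3.72 CPM in flox and 0.81 to 4.35 CPM in LKO livers, with medians of 2.22 and 2.20. The LKO range enclosed the flox range. The log2 fold change was 0.03 (standard error 0.35) with a 95% confidence interval of -0.72 to 0.79, which spans both signs, and it was -0.081 without the pair.

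Egr1 encodes a zinc finger activator that is induced beside Fos, and lies on chromosome 18 from 34367625 to 34372758 (plus strand). The flox livers measured 10.8, 15.3, 13.5, 14.2 and 15.7 CPM in replicates 1 to 5. The LKO livers measured 8.78, 5.82, 9.14, 6.42, 7.40, 2.93 and 13.3 CPM in replicates 1 to 7. Of the LKO livers 6 were under the whole flox range, and LKO replicate 7 lay above flox replicate 1. On the log2 scale LKO differed from flox by -0.86 (standard error 0.26, 95% interval -1.42 to -0.29, adjusted p = 0.613 in edgeR) and by -0.78 (standard error 0.32) without flox replicates 4 and 5. Its coefficient of variation was 14.0% in flox and 42.1% in LKO livers, and the counts ranged from 46 to 258.

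Ier2, a nuclear immediate early protein gene, lies 348984 bases from Junb on chromosome 8 (88855110 to 88856631). It ranged from 20.5 to 29.6 CPM in flox and from 20.9 to 35.1 CPM in LKO livers, with medians of 25.5 and 23.1. No LKO liver lay below the lowest flox liver. The log2 fold change was 0.02 (standard error 0.14), with a 95% confidence interval of -0.27 to 0.32, and -0.11 (standard error 0.15) without flox replicates 4 and 5. With all livers the interval of Ier2 did not overlap that of Junb (-1.23 to -0.51). Without the pair the intervals of Ier2 (-0.43 to 0.22) and Junb (-1.18 to -0.34) overlapped. A difference between these genes was not tested.

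Dusp1 and Zfp36 are the brakes of the list. Dusp1 (chromosome 17, 26736332 to 26739261) measured 67.7, 54.4, 37.5, 46.7 and 49.7 CPM in flox replicates 1 to 5 and 31.7 to 47.4 CPM in LKO livers with a median of 40.3. All 7 LKO livers were under the flox mean, and 2 were under the lowest flox liver, replicate 3. Its log2 fold change was -0.39 (standard error 0.13), and -0.44 (standard error 0.16) without the pair. Zfp36 (chromosome 7, 28031199 to 28033696) measured 75.7 to 100.2 CPM in flox livers, with a median of 79.2, and 66.9 to 85.0 CPM in LKO livers, with a median of 71.9. It had the narrowest spread of the 10, an SD of 0.15 on the log2 scale within groups, and 24.6% of all genes tested had a lower SD. Its log2 fold change was -0.18 (standard error 0.09), and -0.28 (standard error 0.10) without the pair.

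In none of the 10 genes were the groups free of overlap (0 of 10, where all LKO livers lay below all flox livers in 0.19% of all genes tested and above them in 0.293%). All 7 LKO livers lay under the flox mean in 5 of 10, Junb, Fos, Fosl2, Egr1 and Dusp1, against 8.43% of all genes. Without flox replicates 4 and 5 all 10 log2 fold changes were negative, from -0.78 for Egr1 to -0.081 for Atf3, with 49.0% of all genes tested negative. With all livers 8 were negative, with 51.7% of all genes.

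**Figure D3:**
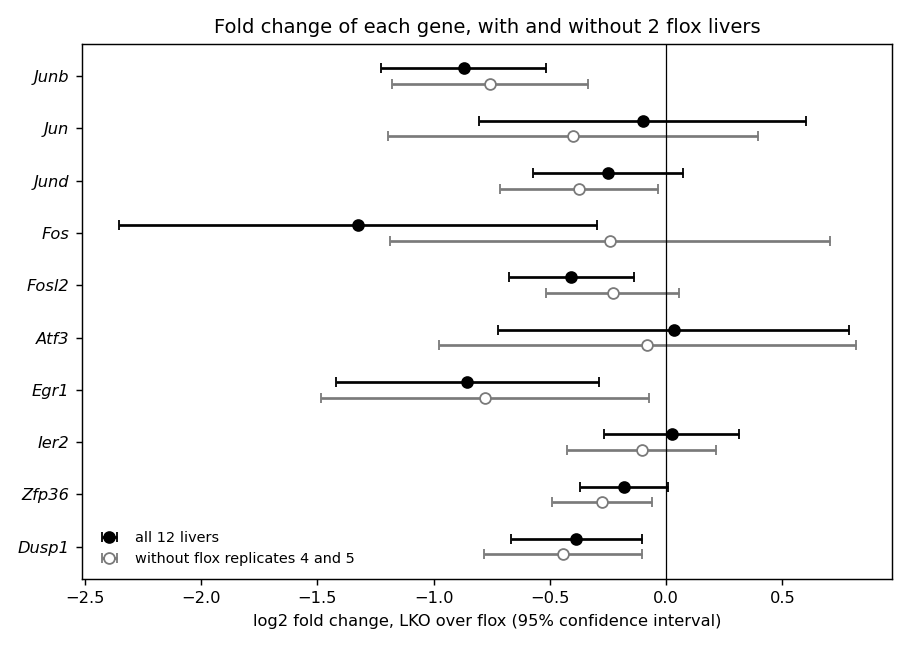
Log2 fold change of LKO over flox (horizontal axis) for each gene, with its 95% confidence interval, from all 12 livers (filled) and without flox replicates 4 and 5 (open). Junb and Egr1 stay near -0.87 and -0.86 in both fits, at -0.76 and -0.78, while Fos goes from -1.33 to -0.24.

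The list was chosen on the difference between the groups, and not on how its genes vary together among the LKO livers. The test behind that choice did use the spread within groups. LKO replicate 7 was the highest LKO liver for 5 of 10 genes, Junb, Fos, Atf3, Egr1 and Ier2, and replicate 6 the lowest for 5, Junb, Jun, Fos, Egr1 and Dusp1. Pearson's r of log2 CPM over the 7 LKO livers was positive in 37 of the 45 pairs of genes, with a median of 0.40. Of the 45, 8 had an unadjusted exact permutation p under 0.05 and 0 passed with Benjamini-Hochberg adjustment. Values of 1 liver share its library, depth and dissection. The share of all genes highest in LKO replicate 7 or lowest in replicate 6 was not computed, nor was the share over pairs of all genes. These counts are therefore not read as particular to the list. The strongest pair was Fosl2 and Zfp36 (r = 0.95, exact permutation p = 0.00198, adjusted p = 0.0893; rho = 0.93, p = 0.00675, adjusted p = 0.256), and r was 0.87 without the 2 livers farthest from the Fosl2 median. Jund with Atf3 (r = 0.89, exact permutation p = 0.00516, adjusted p = 0.116; rho = 0.86, p = 0.0238, adjusted p = 0.256) was at 0.63 without the 2 farthest livers.

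Fos with Egr1, a pair often induced together, had r = 0.89 (exact permutation p = 0.0139, adjusted p = 0.156) and rho = 0.64 (p = 0.139, adjusted p = 0.568). Without LKO replicates 6 and 7, the farthest from the Fos median, r was 0.21, and leaving out each liver in turn gave 0.71 to 0.997. Removing the extremes narrows the range of Fos, so the value of 0.21 cannot decide what the relation rested on. Jun went with Zfp36 at r = 0.85 and rho = 0.82 (exact permutation p = 0.0286 and 0.0341, adjusted p = 0.203 and 0.256), and r was 0.83 without the 2 farthest livers. Ier2 had a negative r with 6 of the other 9 genes, down to -0.54 with Fosl2 (exact permutation p = 0.206, adjusted p = 0.509; rho = -0.68, p = 0.110, adjusted p = 0.568). That value was -0.078 without the 2 farthest livers. No such values were computed within the 5 flox livers.

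**Figure D4:**
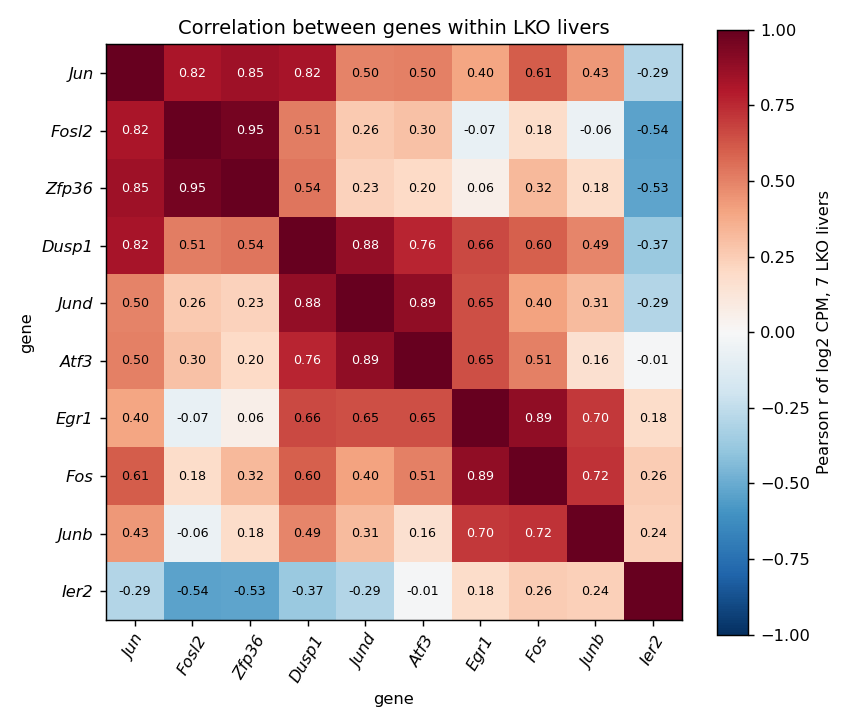
Pearson's r of log2 CPM between each pair of the 10 genes (both axes) over the 7 LKO livers, from -1 (blue) to 1 (red). Fosl2 and Zfp36 reach 0.95, Fos and Egr1 0.89, and Ier2 is in 6 of the 8 negative pairs.

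Other genes whose livers deviated from their group means most like the mean of the 10 members, over all 12 livers, were Fbf1 (r = 0.89), the histone H3.3 gene H3f3b (0.86), Ccdc71l (0.85), Plekha8 (0.85) and Synm, an intermediate filament gene (0.84). They were picked as the highest of all genes, so r is a description only, and without flox replicates 4 and 5, with the group means taken anew, it was 0.94, 0.87, 0.90, 0.87 and 0.85.

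Of the other immediate early genes, 25 of 28 listed were in the table and 21 were tested, with 0 past the threshold. The values of 19 of the 21 were negative with all livers (median log2 fold change -0.29) and of 15 without the pair (median -0.14). Of all genes tested, 51.7% were negative with all livers and 49.0% without the pair, the shares to set beside each list below. Socs3, the feedback inhibitor of cytokine receptors, averaged 14.8 ± 4.41 CPM in flox against 9.29 ± 2.48 CPM in LKO livers, or -0.67 on the log2 scale and -0.34 without the pair. Klf6, a zinc finger factor, measured 10.8 ± 3.75 and 7.28 ± 2.07 CPM (-0.57, and -0.18 without the pair). Both were highest in flox replicates 4 and 5, with 19.1 and 19.6 CPM for Socs3 and 12.8 and 16.4 CPM for Klf6. The EGR paralogs Egr2 and Egr3 and the receptors Nr4a2 and Nr4a3 were too low to be tested with all livers. Nr4a2 did enter the fit without the pair, at 0.82 on the log2 scale, and is left out of the counts and medians above.

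Among the other AP-1 and related bZIP subunits 7 of 12 in the table were tested, 0 passed, and 6 were negative (median -0.15, and -0.069 with 5 negative without the pair). Fosb, Fosl1 and the 3 Batf genes were too low to be tested with all livers. Fosb did enter the fit without the pair, at 0.39 on the log2 scale, and is left out of these counts and medians. The small MAF protein genes Maff and Mafk measured 11.9 ± 3.79 and 17.1 ± 3.66 CPM in flox, against 8.66 ± 2.52 and 14.3 ± 1.88 CPM in LKO livers. Their log2 fold changes were -0.45 and -0.25, and -0.60 and -0.069 without the pair.

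Feedback inhibitors of MAP kinase and EGR signalling were negative in 14 of 16 tested (median -0.16), against 51.7% of all genes. Without the pair 11 were negative (median -0.087), against 49.0% of all genes, and 0 passed the threshold. Nab2, the corepressor that EGR1 induces against itself, averaged 15.1 ± 5.35 CPM in flox against 9.85 ± 2.03 CPM in LKO livers (-0.62 on the log2 scale, and -0.29 without the pair). The phosphatase gene Ptpn1 measured 46.9 ± 9.79 and 38.8 ± 1.70 CPM (-0.28, and -0.053 without the pair).

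The kinases and factors upstream of these promoters had a median close to that of all genes (-0.0060, and 0.0041 without the pair). Of 26 tested, 0 passed, 15 were negative and the median was -0.011 (17 negative and -0.022 without the pair). The negative share was 57.7%, against 51.7% of all genes, and 65.4% against 49.0% without the pair. The CREB coactivator gene Crtc2 averaged 35.9 ± 3.54 against 32.1 ± 1.39 CPM (-0.16 on the log2 scale, and -0.21 without the pair), and Elk1, a partner of serum response factor, 4.44 ± 0.65 and 3.48 ± 0.51 CPM (-0.35, and -0.40 without the pair). Srf itself was at -0.073, and at -0.11 without the pair. In the list of the ZFP36 family and mRNA decay 0 of 16 passed and 8 were negative, with and without the pair (median -0.0025 and 0.0016). Zfp36l2, a paralog of Zfp36, averaged 118 ± 18.1 CPM in flox against 86.6 ± 16.1 CPM in LKO livers (-0.45 on the log2 scale, and -0.42 without the pair), and Khsrp, another AU-rich decay factor, 50.03 ± 3.02 and 46.0 ± 2.81 CPM (-0.12 in both). The adjusted p of the 10 genes named from these lists, picked for the smallest p of each, was 0.532 to 0.693.

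**Figure D5:**
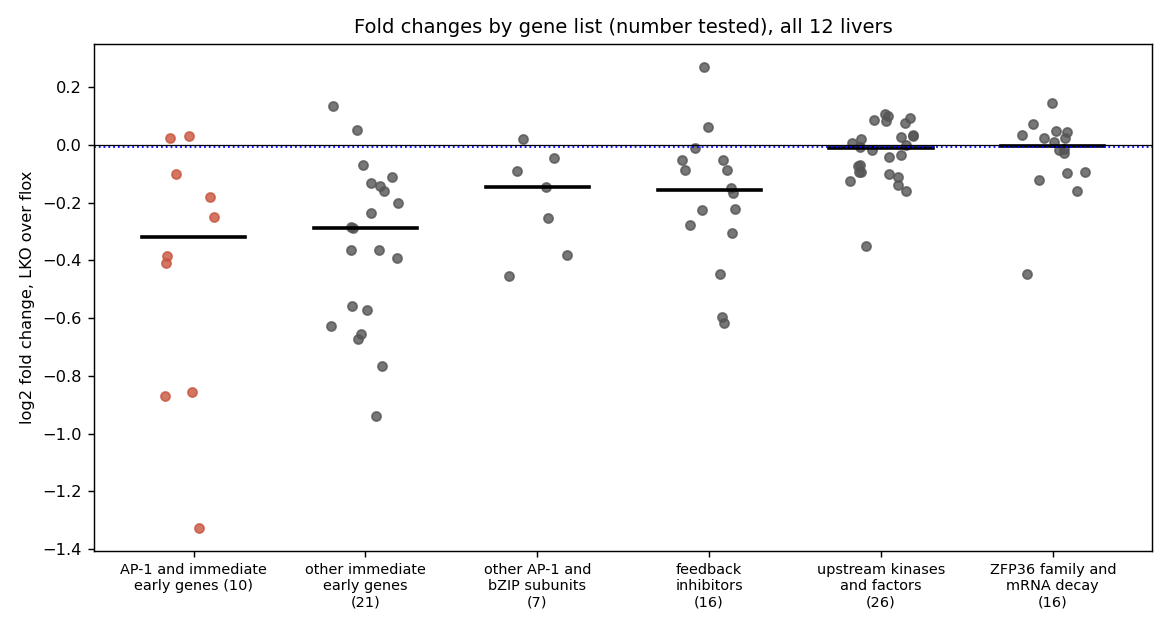
Log2 fold change of LKO over flox (vertical axis) of every gene tested in each list, all 12 livers; points are genes, bars are list medians, and the dotted line is the median of all genes tested (-0.0060). Medians are -0.32 for the 10 members (red), -0.29 for other immediate early genes and -0.011 for upstream kinases and factors.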

How the data were processed

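Liver RNA of 12 mice was sequenced from NEBNext libraries, per the labels' protocols. The authors deposited whole-number counts per gene, used as deposited, and FPKM, checked here to be those counts per gene length and per 1 size for each library. The submitters' processing notes name CASAVA 1.8, fastp, HISAT2 2.0.5, featureCounts 1.5.0-p3, DESeq2 1.20.0 and GRCm39, while most identifiers in the table are of the C57BL/6NJ strain. Coordinates are as in the table, promoters are on GRCm38.p6, and the strand setting is not given in the sources used here. No 2 libraries of a group agreed within counting error (chi-square of 9.07 to 94.0 per degree of freedom).

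Genes passing filterByExpr were compared with edgeR 4.0.16 (TMM, robust glmQLFit, glmQLFTest, no covariate, Benjamini-Hochberg, 0.05) in R 4.3.3; a fold change is LKO over flox throughout, and CPM uses TMM-scaled sizes. The code was tested on simulated counts. Members, lists and tests were chosen with earlier results of these data known. Named are the 10 members, Ube4a, the 2 tested genes of smallest p per list and the 5 most similar protein-coding genes of at least 1 CPM. Alternatives were other scalings and filters, DESeq2 1.42.0, limma 3.58.1 (voom with quality weights; log2 of FPKM plus 0.1 or 1), non-robust dispersion, a replicate block, and leaving out livers. DESeq2 without flox replicates 4 and 5, and the fit of replicates 1 to 5 without a block, were chosen after seeing the data.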

Additional observations from a re-analysis of the deposited data

Results flagged for a closer look

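Ube4a itself was high in LKO replicate 7, with 34.0 CPM against 26.8 CPM in the next LKO liver. That liver was also the highest LKO liver for Junb, Fos, Atf3, Egr1 and Ier2, and the lowest of all livers for Maff (4.83 CPM). A link of these levels with its Ube4a level was not tested. The check was Dixon's ratio, the gap to the next liver over the range of the group, at 0.66 here against a limit of 0.568 for LKO livers. It was run over both groups of the 10 members and Ube4a, 22 in all, without adjustment for their number. No other liver was marked.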

How the results depend on the processing

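Over 25 alternatives Ube4a kept its sign and its call, and Junb, Egr1, Jund, Fos, Fosl2, Zfp36 and Dusp1 stayed negative, Fos between -1.67 and -0.24. Genes past the threshold numbered 1 in all edgeR and limma fits but 1: leaving out each liver gave 1 to 2, with 2 without LKO replicate 7. DESeq2 called 22 (11 higher, 11 lower), and 4 without flox replicates 4 and 5. Junb passed in DESeq2 alone (-0.88, adjusted p = 0.00291), and its adjusted p over the 25 ran from 0.00291 to 0.991. Leaving out each liver gave -0.19 to 0.26 for Atf3, -0.074 to 0.085 for Ier2 and -0.31 to 0.14 for Jun, which was 0.14 without flox replicate 1. Atf3 and Ier2 turned negative with total counts (-0.0044 and -0.0055), without flox replicates 4 and 5 (-0.081 and -0.11) and in DESeq2 without them (-0.082 and -0.11), and Atf3 also with FPKM plus 0.1 or 1 (-0.052 and -0.0064); the cause was not tested. With the replicate block over replicates 1 to 5, 1 gene passed, Junb was at -0.82, Atf3 at -0.15 and Ier2 at -0.12; the same livers without the block gave 1, -0.85, -0.11 and -0.12. Same-numbered livers were not alike (r of deviations -0.29 to 0.10, 0 of 5 flox livers closest to their own number), and whether they shared a day or cage was not tested. The median r among LKO livers was 0.12 to 0.58 over 11 alternatives, and Fosl2 with Zfp36 passed with total counts (adjusted exact permutation p = 0.0357). Fos counts of 5 to 79 limit its precision.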
